A study of Arabidopsis thaliana with 16 samples.

Results

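Several GH3 genes of Arabidopsis thaliana encode enzymes that join auxin to amino acids. The 5 members described here are GH3.1 (AT2G14960), GH3.3 (AT2G23170), WES1 (AT4G27260, also called GH3.5), GH3.17 (AT1G28130) and GH3.9 (AT2G47750). The array's probe annotation names each of them with a probe set of its own, 1 each, out of 22746 probe sets tested and 13513 with exactly 1 named gene. Not every other GH3 gene was looked up. All 5 are reported whatever their response, but the set was chosen with earlier results of these data known. They were measured on all 16 arrays without a filter on low values.

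GH3 enzymes are acyl acid amido synthetases. Those that act on indole-3-acetic acid (IAA), the main natural auxin, lower the pool of active hormone by conjugating it. Several GH3 genes are among the early auxin-responsive genes: auxin promotes the breakdown of Aux/IAA repressors, which frees ARF transcription factors to act at their promoters, and the conjugating enzymes made in response lower free auxin again. GH3.1, GH3.3 and WES1 belong to the auxin-inducible members, and the WES1 enzyme also acts on salicylic acid. GH3.17 prefers glutamate as the amino acid it attaches to IAA, and GH3.9 has been linked to primary root growth.

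Total RNA came from roots of 5-day-old seedlings of 1 genotype, in which a fusion of the transcription factor LBD16 to the glucocorticoid receptor (gLBD16:GR) is driven by LBD16's own regulatory region in the triple mutant lbd16-1 lbd18-1 lbd33-1. Every group, the mock group included, carried the fusion and all 3 mutations. Seedlings received dexamethasone (DEX, 2 µM), a steroid that lets a receptor fusion enter the nucleus, cycloheximide (CHX, 10 µM), which blocks protein synthesis, and the synthetic auxin NAA (1 µM), each present or absent, for 4 h. The 8 groups were mock (0.1% DMSO), DEX, NAA, NAA+DEX, CHX, DEX+CHX, NAA+CHX and NAA+DEX+CHX, with 2 arrays each. Roots without the fusion were not analysed here, so effects of DEX itself and of the activated fusion cannot be told apart. The labels describe 2 independent sets per treatment without saying what was independent, so a p-value here reflects the spread between the arrays deposited, which may be technical.

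The values are intensities on a linear scale, and as deposited their 2% trimmed mean was 500 on each array. The array median lay between 150.9 and 174.7 on the 8 arrays without CHX and between 179.2 and 189.2 on the 8 with it. A list gene counts as measured here only where the annotation names a probe set for that gene alone. Of the listed tissue markers, 2 of 18 for root (PYK10 and EXPA7) and 2 of 13 for shoot (FMA and SPCH) were measured. Summed, the root markers gave 23438.1 to 31940.7 on arrays lacking CHX and 13891.3 to 19845.8 on arrays with it. The shoot markers gave 15.29 to 62.52 and 4.26 to 27.91. The root sum was mostly PYK10 (26464.9 in mock, EXPA7 1115.6), and so few markers cannot show whether shoot tissue was absent. In whole roots, fewer cells of a type and less RNA per cell cannot be told apart. Differences are given as log2(intensity + 16), an offset that understates the change of dim probe sets, from 1 limma model over all arrays. A gene passed the test at a Benjamini-Hochberg adjusted p under 0.05 over all 22746 probe sets, and intervals are 95% intervals of the model. Many comparisons share arrays (NAA vs mock and CHX vs mock share the mock arrays), so their values are set side by side and not correlated. Whether 2 pairs of arrays overlap is given as a description, and how often pairs separate over all probe sets was not counted.

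The first question was how the GH3 genes answered auxin. GH3.1, GH3.3 and WES1 rose strongly after 4 h of NAA, by 18.1-fold to 28.7-fold, while GH3.17 and GH3.9 did not pass the test. In the NAA vs mock comparison 3 of 5 GH3 genes passed, all higher, where 13.4% of all probe sets passed and 7.3% passed as higher. The median log2 difference was 4.18 over the 5 genes and 0.05 over all probe sets.

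GH3.1 read 49.72 and 64.45 on the mock arrays, and 1488.2 and 1564.7 on the NAA arrays. The NAA arrays lay far above both mock arrays, with no overlap. The log2 difference was 4.41 (SE 0.19, interval 3.98 to 4.83), a 21.2-fold rise with limma adjusted p = 1.4e-07. GH3.1 was dim in mock and its size depends on the offset: the log2 difference was 4.73 with an offset of 1 and 3.72 with an offset of 64, and it passed with both.

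GH3.3 read 603.3 and 845.3 in mock, and 21444 and 20510.8 after NAA. All 4 values separate into a low mock pair and a high NAA pair, and the brightest NAA array placed GH3.3 at the 99.9th percentile of its probe sets. The rise was 28.7-fold, with a log2 difference of 4.84 (interval 4.33 to 5.36, limma adjusted p = 2.7e-07). Saturation calls were not used, so a ceiling at such intensities was not tested.

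WES1 read 625 and 604.8 in mock, and 12103.8 and 10722.5 after NAA. Its mock arrays were close together and both NAA arrays stood well above them. The log2 difference of 4.18 (SE 0.12, limma adjusted p = 1e-08), an 18.1-fold rise, had the rank of 2 by p among the 22746 probe sets.

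GH3.17, whose product forms the glutamate conjugate of IAA, read 2404.8 and 2204 in mock, and 2021.2 and 1766.1 after NAA. The NAA pair was lower than the mock pair without overlap, but by a log2 difference of -0.28 (interval -0.67 to 0.10) that did not pass the test (limma adjusted p = 0.35). GH3.9 was dim, at 10.34 and 23.93 in mock and at 17.32 and 12.37 after NAA. Its NAA arrays lay between the mock arrays, and the log2 difference was -0.08 (interval -0.68 to 0.52, limma adjusted p = 0.91). Detection calls were not used, so GH3.9 at these intensities may not stand above background.

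**Figure D1:**
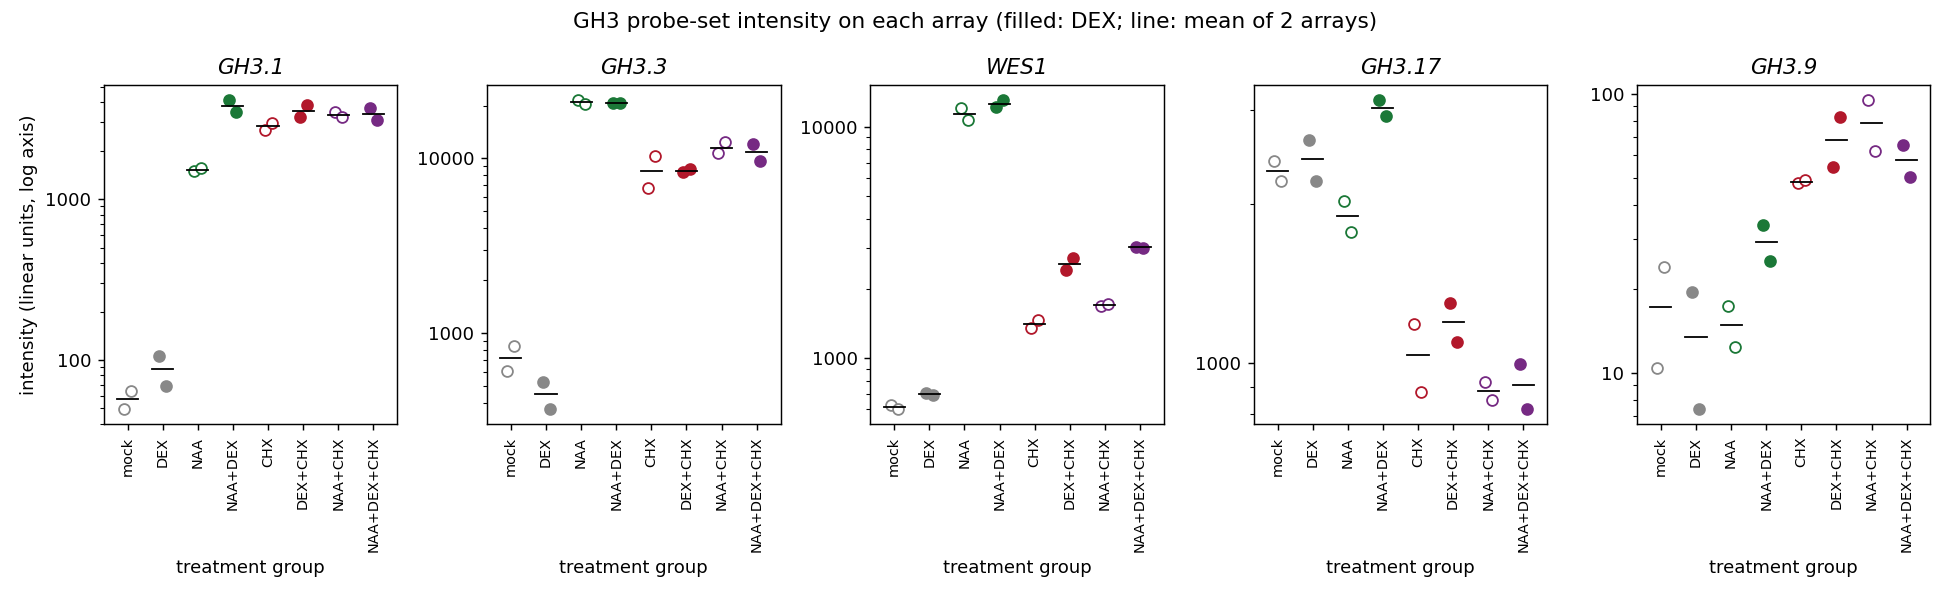
Intensity of each of the 5 GH3 genes (log axis, 1 panel per gene) on all 16 arrays in the 8 treatment groups; each point is an array, filled points received DEX, and each line is the mean of 2 arrays. GH3.1, GH3.3 and WES1 are higher on every NAA array than on the mock arrays, and GH3.17 is lower on every CHX array than on every array without CHX.

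With DEX present in both groups, the auxin response had the same members. NAA+DEX against DEX passed for 3 of 5 GH3 genes, all higher, where 23.9% of all probe sets passed and 14.1% as higher. GH3.1 read 106.1 and 68.5 with DEX, and 4117 and 3483.8 with NAA+DEX, a 37.4-fold difference (log2 5.23, limma adjusted p = 5.9e-08). GH3.3 read 527.6 and 369.1 with DEX and 20774 and 20743.7 with NAA+DEX, a 45.4-fold difference (log2 5.50, limma adjusted p = 9.1e-08). For WES1 the DEX arrays gave 709.1 and 693.5 and the NAA+DEX arrays 12173.4 and 13020.5, a 17.6-fold difference (log2 4.14, limma adjusted p = 1.4e-08). In all 3 genes the treated pair lay far above the DEX pair.

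GH3.17 and GH3.9 again did not pass. GH3.17 read 2639.1 and 2210.1 with DEX and 3132.7 and 2921.4 with NAA+DEX, with a log2 difference of 0.32 (interval -0.06 to 0.71, limma adjusted p = 0.22). GH3.9 read 19.47 and 7.42 with DEX and 33.72 and 25.11 with NAA+DEX, with a log2 difference of 0.65 (interval 0.05 to 1.25, limma adjusted p = 0.11). In both genes the NAA+DEX pair was the higher one, without overlap.

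The second question was what remained of the auxin response when protein synthesis was inhibited. None of the 5 GH3 genes passed NAA+CHX vs CHX, where 0.167% of all probe sets passed, 38 by adjusted p and 2739 at an unadjusted limma p under 0.05. None passed NAA+DEX+CHX vs DEX+CHX either, where 1.18% of all probe sets passed, 268 by adjusted p and 2820 at an unadjusted limma p under 0.05. How far CHX blocked protein synthesis was not measured.

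In GH3.1 the CHX arrays gave 2680.9 and 2982.6, already above the NAA arrays, and the NAA+CHX arrays gave 3459.7 and 3242.1. The NAA+CHX pair was the higher one without overlap, by a log2 difference of 0.24 (interval -0.18 to 0.67, limma adjusted p = 0.68). With DEX also present the difference was -0.06 (interval -0.48 to 0.36), from 3239.7 and 3864.6 in DEX+CHX to 3705 and 3105.8 in NAA+DEX+CHX, and these arrays overlapped.

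GH3.3 read 6757 and 10244 with CHX and 10657.3 and 12340.2 with NAA+CHX. The difference between the CHX arrays was wider than the gap to the next NAA+CHX array, and the log2 difference was 0.46 (interval -0.05 to 0.98, limma adjusted p = 0.47). With DEX, GH3.3 read 8289 and 8647.4 in DEX+CHX and 12081.5 and 9662.5 in NAA+DEX+CHX, a log2 difference of 0.35 (interval -0.17 to 0.87, limma adjusted p = 0.6).

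WES1 gave 1350.5 and 1459.5 with CHX, and 1676.6 and 1712 with NAA+CHX. These pairs did not overlap, and the log2 difference of 0.27 (interval 0.01 to 0.53) did not pass the adjusted test (limma adjusted p = 0.39). With DEX, WES1 read 2410.4 and 2706.5 in DEX+CHX and 3034.4 and 3004.3 in NAA+DEX+CHX, a log2 difference of 0.24 (interval -0.02 to 0.50, limma adjusted p = 0.45).

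GH3.9 read 47.64 and 49.12 with CHX and 94.55 and 62.44 with NAA+CHX, a log2 difference of 0.53 that did not pass (limma adjusted p = 0.48). With DEX it read 54.7 and 82.09 without NAA and 65.43 and 50.05 with it, an overlap (log2 difference -0.18, limma adjusted p = 0.86). In GH3.9, then, NAA gave no call in either CHX background.

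GH3.17 read 1187 and 882.7 with CHX and 921.4 and 850.1 with NAA+CHX, which overlapped (log2 difference -0.21, limma adjusted p = 0.7). With DEX it read 1299.9 and 1094.3 in DEX+CHX and 996.1 and 819.8 in NAA+DEX+CHX. That NAA pair was lower without overlap, by a log2 difference of -0.39 (interval -0.78 to -0.01) that did not pass (limma adjusted p = 0.39).

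The change of the auxin effect itself was tested as the NAA by CHX interaction, averaged over the DEX states. It passed for 3 of 5 GH3 genes, all with a smaller NAA effect in CHX, where 14.6% of all probe sets passed and 8.15% in that direction. The log2 NAA effect was smaller with CHX by -4.73 in GH3.1 (interval -5.15 to -4.30, limma adjusted p = 1.8e-07). In GH3.3 the interaction was -4.77 (interval -5.28 to -4.25, limma adjusted p = 4.4e-07), and in WES1 it was -3.90 (interval -4.16 to -3.64, limma adjusted p = 2.7e-08). For GH3.9 it was -0.11 (limma adjusted p = 0.84) and for GH3.17 -0.32 (limma adjusted p = 0.27).

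GH3.1 and GH3.3 were already high with CHX alone, whereas the WES1 level with NAA+CHX was far under its level with NAA. The CHX effects below give those levels.

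The third question was what CHX did by itself and on top of each other treatment. CHX vs mock passed for all 5 GH3 genes, 4 higher and 1 lower, but 50.1% of all probe sets passed, 23% as higher and 27% as lower. DEX+CHX vs DEX gave the same split, 4 higher and 1 lower, beside 50.9% of all probe sets (24.2% higher, 26.6% lower). Without NAA the CHX rise was 39.1-fold in GH3.1, 11.4-fold in GH3.3, and 2.25-fold in WES1, GH3.9 passed as higher from a dim level, and GH3.17 fell 2.23-fold. The median over the 5 genes in CHX vs mock was 1.17 on the log2 scale, and that over all probe sets was -0.04.

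For GH3.1 the lowest CHX array, at 2680.9, was far above the higher mock array, at 64.45. The log2 difference was 5.29 against mock (limma adjusted p = 1.8e-09) and 5.13 between DEX+CHX and DEX (35-fold, limma adjusted p = 2.3e-09). Against mock it was 5.62 with an offset of 1 and 4.58 with an offset of 64. GH3.1 was thus higher with CHX alone than with NAA alone: the CHX pair lay above the NAA pair without overlap.

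For GH3.3 the log2 differences were 3.51 (limma adjusted p = 2.4e-07) against mock and 4.21 between DEX+CHX and DEX (18.5-fold, limma adjusted p = 5.3e-08). Its CHX arrays stayed under both NAA arrays. WES1 rose by a log2 difference of 1.17 against mock (limma adjusted p = 6.5e-06) and 1.84 between DEX+CHX and DEX (3.58-fold, limma adjusted p = 1.6e-07).

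GH3.9 passed as higher with CHX, by a log2 difference of 0.99 against mock (limma adjusted p = 0.01) and 1.53 between DEX+CHX and DEX (limma adjusted p = 0.00058). Both CHX arrays lay above both mock arrays. The size for this dim probe set depends on the offset: CHX vs mock was 1.55 with an offset of 1 and 0.48 with an offset of 64, and without mock replicate 1 the call was lost (log2 difference 0.69, limma adjusted p = 0.095). The CHX arrays had the higher array medians, as given above, and with each array centred on its median the GH3.9 difference was 0.83 and still passed (limma adjusted p = 0.029).

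GH3.17 fell with CHX in every comparison. Its 8 CHX arrays ranged from 819.8 to 1299.9, and its 8 arrays without CHX from 1766.1 to 3132.7, so the sets did not overlap. The log2 difference was -1.16 against mock (limma adjusted p = 0.00018) and -1.01 between DEX+CHX and DEX (2.01-fold lower, limma adjusted p = 0.00048). Of the root markers, PYK10 averaged 26464.9 in mock and 18201.5 with CHX (log2 -0.53, limma adjusted p = 0.028), where 27% of all probe sets passed as lower. EXPA7 averaged 1115.6 and 1168.8 (log2 0.07, limma adjusted p = 0.76). In DEX+CHX vs DEX, NAA+CHX vs NAA and NAA+DEX+CHX vs NAA+DEX both markers were lower with CHX and passed. There 26.6%, 28.6% and 29.8% of all probe sets passed as lower. The part of the root markers in the GH3.17 difference was not tested.

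On top of NAA, CHX moved the 5 genes in both directions. NAA+CHX vs NAA passed for all 5 GH3 genes, 2 higher and 3 lower, beside 50.6% of all probe sets (22% higher, 28.6% lower). NAA+DEX+CHX vs NAA+DEX passed for 3 genes, all lower, beside 52% of all probe sets (29.8% lower). WES1 fell 6.67-fold without DEX (log2 -2.74, limma adjusted p = 6.2e-09) and 4.15-fold with it (log2 -2.05, limma adjusted p = 5.8e-08). GH3.17 fell 2.11-fold (log2 -1.08, limma adjusted p = 0.00028) and 3.31-fold (log2 -1.73, limma adjusted p = 6.5e-06).

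GH3.3 fell 1.83-fold on top of NAA (log2 -0.87, limma adjusted p = 0.0086) and 1.92-fold on top of NAA+DEX (log2 -0.94, limma adjusted p = 0.0053). Without NAA+CHX replicate 1 the first of these calls was lost (log2 -0.76, limma adjusted p = 0.06). GH3.1 moved the other way on top of NAA, rising 2.18-fold (log2 1.13, limma adjusted p = 0.00041), and did not pass on top of NAA+DEX (log2 -0.16, interval -0.58 to 0.26, limma adjusted p = 0.53). GH3.9 was higher on top of NAA by a log2 difference of 1.60 (limma adjusted p = 0.00041), or 2.31 with an offset of 1 and 0.85 with an offset of 64, from a level that may not stand above background. On top of NAA+DEX its log2 difference was 0.70 (interval 0.10 to 1.30, limma adjusted p = 0.051).

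**Figure D2:**
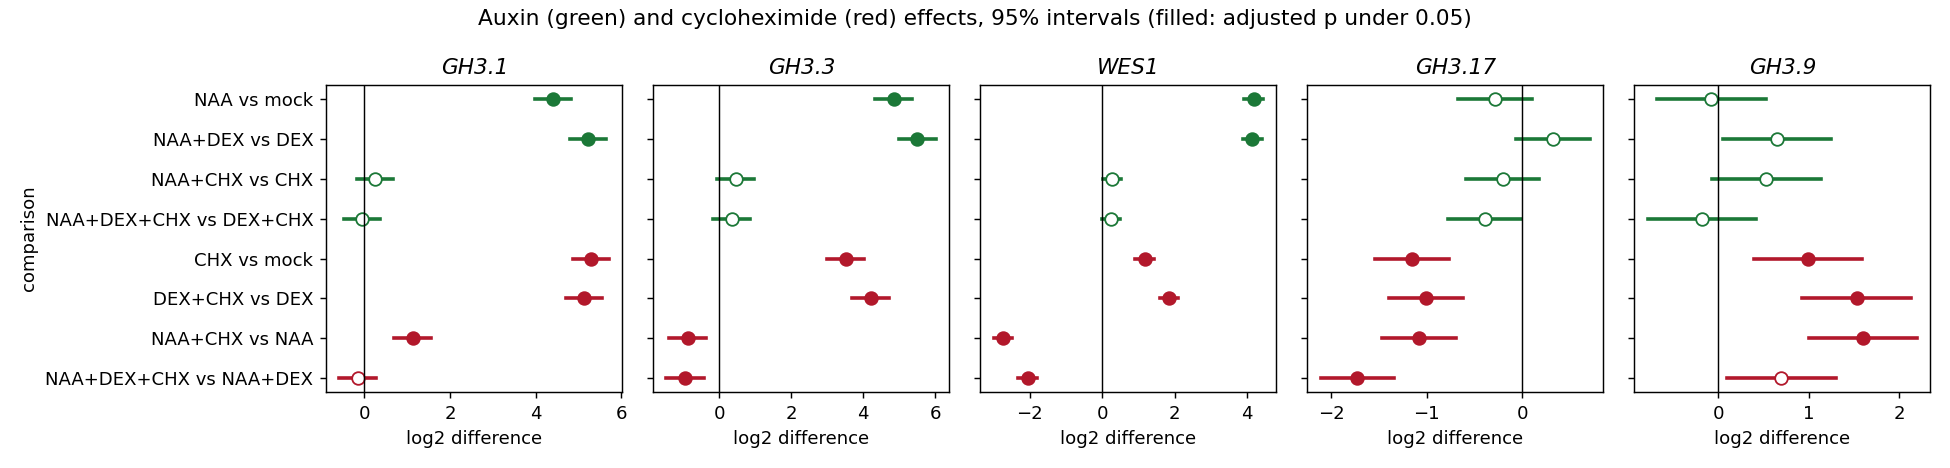
Log2 differences of the 5 GH3 genes for NAA and for CHX, each against its matched control; points are estimates, bars are 95% intervals, and filled points have an adjusted p under 0.05. The NAA differences of GH3.1, GH3.3 and WES1 exceed 4 without CHX and lie between -0.06 and 0.46 with it.

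The fourth question, the one the design was built on, was what DEX did in roots carrying the LBD16 fusion. GH3.1 passed as higher with DEX in the presence of NAA, but not with NAA and CHX together. WES1 passed as higher with DEX in the presence of CHX, with and without NAA. The matching interactions did not pass in the model over all arrays, and these DEX calls were lost on only the arrays compared. GH3.3 and GH3.9 passed no DEX comparison, and GH3.17 missed the threshold with NAA and passed it under some alternatives given below. DEX alone against mock passed for none of the 5 GH3 genes, where 0.0528% of all probe sets passed, 12 by adjusted p and 1675 at an unadjusted limma p under 0.05.

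GH3.1 read 49.72 and 64.45 in mock and 106.1 and 68.5 with DEX. The DEX pair was higher without overlap, with a log2 difference of 0.48 (interval 0.06 to 0.90) that did not pass (limma adjusted p = 0.61). With NAA the arrays gave 1488.2 and 1564.7 without DEX and 4117 and 3483.8 with it, again without overlap. That rise was 2.47-fold (log2 1.30, interval 0.88 to 1.73, limma adjusted p = 0.0039), and GH3.1 was the 1 of 5 GH3 genes that passed NAA+DEX vs NAA, where 2.93% of all probe sets passed and 1.22% as higher.

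The mean DEX effect without CHX, over the states with and without NAA, was 0.89 in GH3.1 (1.86-fold, SE 0.14, limma adjusted p = 0.0077). It passed for 1 of 5 GH3 genes beside 1.61% of all probe sets (0.624% higher). The DEX by NAA interaction without CHX was 0.82 in GH3.1 (interval 0.22 to 1.42, limma adjusted p = 0.27), so the DEX effects with and without NAA were not shown to differ. It passed with an offset of 64 (limma adjusted p = 0.034). None of the 5 GH3 genes passed that interaction, which 0.822% of all probe sets did (2526 at an unadjusted limma p under 0.05). Fitted on only the arrays compared, the GH3.1 calls were lost for NAA+DEX vs NAA (limma adjusted p = 0.078) and for the mean effect (limma adjusted p = 0.086).

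With CHX, GH3.1 did not pass for DEX. DEX+CHX vs CHX gave a log2 difference of 0.32 (interval -0.10 to 0.74) and NAA+DEX+CHX vs NAA+CHX one of 0.02 (interval -0.40 to 0.44), both with limma adjusted p = 1. The DEX by CHX interaction of GH3.1, -0.72 (interval -1.14 to -0.30), did not pass (limma adjusted p = 0.27).

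WES1 read 1350.5 and 1459.5 with CHX and 2410.4 and 2706.5 with DEX+CHX. Both DEX+CHX arrays lay above the CHX arrays, and the rise was 1.81-fold (log2 0.86, interval 0.60 to 1.11, limma adjusted p = 0.032). WES1 was the 1 of 5 GH3 genes that passed DEX+CHX vs CHX, where 0.0528% of all probe sets passed, 12 in all and each of them higher.

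A second pair of groups gave a rise of like size. WES1 read 1676.6 and 1712 with NAA+CHX, and 3034.4 and 3004.3 with NAA+DEX+CHX, without overlap, a 1.77-fold difference (log2 0.83, interval 0.57 to 1.09, limma adjusted p = 0.026). Again WES1 was the 1 of 5 GH3 genes that passed, beside 0.11% of all probe sets (0.0923% higher). The mean DEX effect with CHX was 0.84 (1.79-fold, limma adjusted p = 0.0015), higher in 4 of 4 DEX arrays, and passed for 1 of 5 GH3 genes beside 0.145% of all probe sets (0.119% higher). By p it had the rank of 10 among the 22746 probe sets.

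The single WES1 comparisons depend on the variance estimate shared by all arrays. DEX+CHX vs CHX lost its call in 12 of 16 fits that each left out 1 array, those without any 1 of the DEX, CHX, DEX+CHX, NAA+DEX, NAA+CHX or NAA+DEX+CHX arrays (limma adjusted p up to 0.36). NAA+DEX+CHX vs NAA+CHX lost its call in 8 such fits, without any 1 of the DEX, NAA+DEX, NAA+CHX or NAA+DEX+CHX arrays (limma adjusted p up to 0.18). Fitted on only the arrays compared, neither single comparison passed (limma adjusted p = 0.54 and 0.41). Neither passed with a replicate block, although the array numbers do not pair the arrays. The mean effect with CHX passed in all 16 fits that left out 1 array, with log2 differences of 0.80 to 0.88 and limma adjusted p of 0.0025 to 0.014. On only the arrays compared, it did not pass (limma adjusted p = 0.058).

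Without CHX, WES1 did not pass for DEX. The log2 difference was 0.19 against mock (interval -0.07 to 0.44, limma adjusted p = 0.78) and 0.14 with NAA (interval -0.11 to 0.40, limma adjusted p = 0.64). The DEX by CHX interaction of WES1 was 0.68 (interval 0.42 to 0.94) with limma adjusted p = 0.064, so the DEX effects with and without CHX were not shown to differ. It passed with an offset of 64 (0.013) and with the intensity filter (0.02). None of the 5 GH3 genes passed that interaction, where 0.0747% of all probe sets did (1781 at an unadjusted limma p under 0.05).

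GH3.17 had a 1.6-fold higher mean with NAA+DEX than with NAA, from 2021.2 and 1766.1 to 3132.7 and 2921.4. These pairs did not overlap, and the log2 difference of 0.67 (interval 0.29 to 1.06) missed the threshold (limma adjusted p = 0.072). It passed with an offset of 64 (limma adjusted p = 0.023), with the intensity filter (0.025) and with a replicate block (0.018), though array numbers do not pair the arrays. It passed in no fit that left out 1 array (limma adjusted p of 0.055 to 0.29). In the other DEX backgrounds GH3.17 differed by 0.03 to 0.22 on the log2 scale, with limma adjusted p of 0.97 or 1. Its mean DEX effect without CHX was 0.37 (limma adjusted p = 0.22).

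GH3.3 read lower with DEX than in mock on both arrays, with a log2 difference of -0.67 (interval -1.19 to -0.16, limma adjusted p = 0.53). With NAA present its DEX difference was -0.01 (interval -0.53 to 0.50), with CHX 0.03 (interval -0.49 to 0.54) and with NAA and CHX -0.09 (interval -0.60 to 0.43). For GH3.9 the DEX differences were -0.17 against mock, 0.56 with NAA, 0.37 with CHX and -0.34 with NAA and CHX, and none passed. The DEX by NAA interaction with CHX passed for none of the 5 GH3 genes and for 0% of all probe sets (0 by limma adjusted p, 1067 at an unadjusted p under 0.05).

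**Figure D3:**
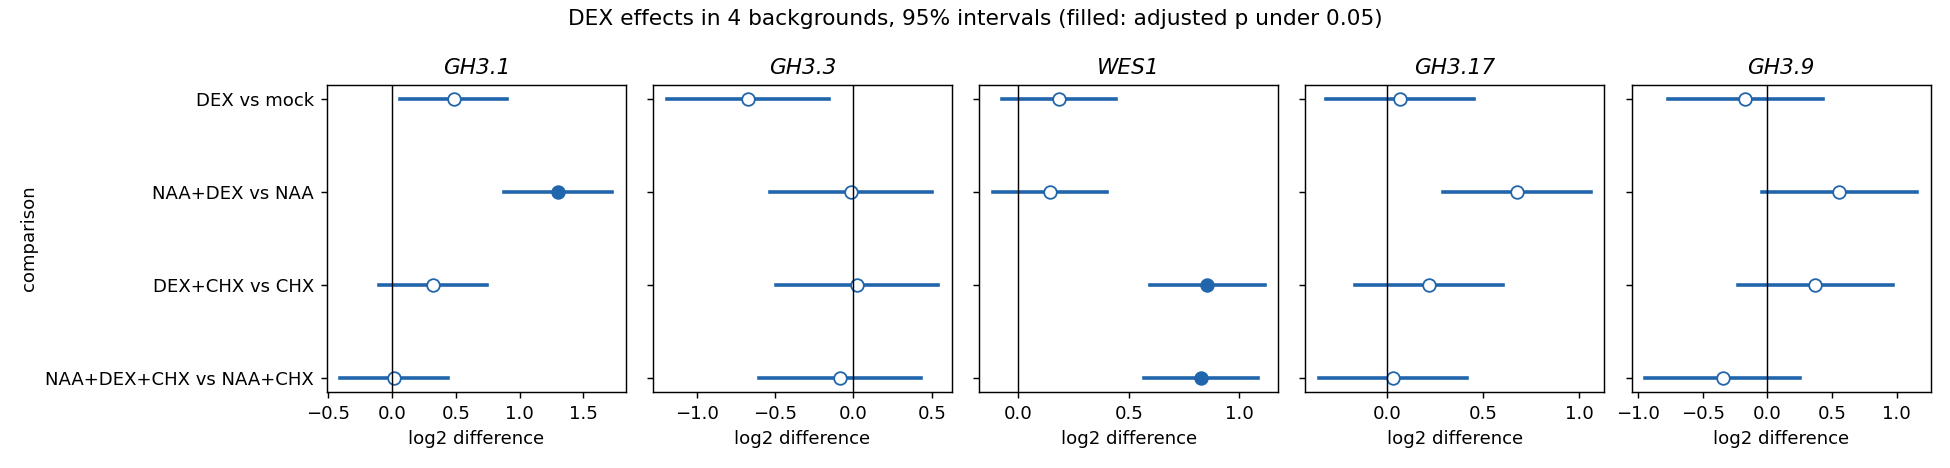
Log2 differences of the 5 GH3 genes for DEX against its matched control in each of the 4 backgrounds; points are estimates, bars are 95% intervals, and filled points have an adjusted p under 0.05. Filled points are GH3.1 with NAA (1.30), and WES1 with CHX (0.86) and with NAA and CHX (0.83).

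Ordered by level over the 8 groups, each gene had its own sequence. Neighbours are called apart where their step exceeded the 95% interval of a difference, with no test of the order. That interval is not adjusted over the probe sets, and some steps beyond it did not pass the adjusted test. These included DEX vs mock in GH3.1 and GH3.3 (limma adjusted p = 0.61 and 0.53) and NAA+CHX vs CHX in WES1 (0.39). GH3.1 went from mock to DEX, to NAA, to CHX, each step beyond the interval. Above CHX stood NAA+CHX, NAA+DEX+CHX, DEX+CHX and NAA+DEX, with no neighbouring step beyond it.

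GH3.3 was lowest with DEX, then in mock, then in the 4 CHX groups, and highest in NAA+DEX and NAA. The steps from DEX to mock, from mock to CHX and from NAA+CHX up to the NAA groups were beyond the interval, and those among the 4 CHX groups were within it. WES1 was lowest in mock and DEX, which did not differ beyond the interval. It stepped up to CHX, to NAA+CHX and to DEX+CHX, with NAA+DEX+CHX next and within the interval, then to NAA and NAA+DEX at the top.

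GH3.17 had the 4 CHX groups at the bottom, and above them NAA, mock, DEX and NAA+DEX. Its only neighbouring step beyond the interval was from DEX+CHX to NAA. GH3.9 ran from DEX through NAA, mock, NAA+DEX, CHX, NAA+DEX+CHX and DEX+CHX to NAA+CHX with no neighbouring step beyond the interval.

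Other auxin genes are given from lists of the pathway, of which the array annotation named few. Of 6 further GH3 family genes (GH3.2, GH3.4, DFL1, JAR1, DFL2 and PBS3) 0 had a probe set listed, and they were not analysed here. Other GH3 names on the list were not matched to a gene, so whether the array holds them was not determined. Of 28 listed genes for auxin perception and response factors 0 had a probe set named for that gene alone. In each list, genes not counted as measured may have probe sets among the 8730 with no gene listed or the 503 with several. The Aux/IAA repressors, 7 of 32 measured, were the fullest list.

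In NAA vs mock, 4 Aux/IAA genes rose, 1 fell and 2 did not pass, with a median log2 difference of 1.12, beside 13.4% of all probe sets passing. IAA29 rose by 5.46 and IAA30 by 4.30 on the log2 scale, beside the 4.18 to 4.84 of GH3.1, GH3.3 and WES1, and IAA33 fell by 1.25. With CHX in both groups, 0 of 7 passed NAA+CHX vs CHX (0.167% of all probe sets) and 0 of 7 passed NAA+DEX+CHX vs DEX+CHX (1.18%). The NAA by CHX interaction passed for 5 of the 7, beside 14.6% of all probe sets, with -4.09 in IAA29 and -3.92 in IAA30 and a positive value, 2.09, in IAA33.

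CHX vs mock passed for 6 of 7 Aux/IAA genes, 4 higher and 2 lower, beside 50.1% of all probe sets (23% higher, 27% lower). The GH3 genes had 4 higher and 1 lower. IAA30 rose by 4.75 and IAA29 by 1.58 on the log2 scale, and IAA31 fell by 1.18. The mean DEX effects passed for 0 of 7, beside 1.61% of all probe sets without CHX and 0.145% with CHX.

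Of the genes for other ways to inactivate auxin or release it from conjugates, 2 of 17 were measured, both encoding glucosyltransferases. In CHX vs mock both passed, 1 higher and 1 lower, beside 50.1% of all probe sets (23% higher, 27% lower). UGT84B1, which attaches glucose to IAA, rose with CHX from 5.02 ± 0.74 to 164.8 ± 45.3 (intensity, SD, n = 2; log2 3.08, limma adjusted p = 7e-07). Its mock level was very dim and may not stand above background, which leaves the size of that rise uncertain. UGT84B1 was also higher in NAA+DEX+CHX than in DEX+CHX (log2 1.69, limma adjusted p = 0.012), a comparison that no GH3 gene and 1.18% of all probe sets passed. UGT74D1 fell with CHX by 1.29 on the log2 scale, and neither gene passed NAA vs mock, which 13.4% of all probe sets did.

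Among auxin synthesis genes, 4 of 23 were measured, all YUC flavin monooxygenases. In NAA vs mock 0 rose and 1 fell, beside 13.4% of all probe sets passing. The 1 was YUC6, lower by 1.11 on the log2 scale (limma adjusted p = 0.046). YUC6 averaged 118.3 ± 4.78 in mock and 50.55 ± 33.1 with NAA (intensity, SD, n = 2), so its 2 NAA arrays differed widely. Of the 25 auxin transport genes only WAG2, a kinase that acts on PIN auxin carriers, had a probe set named for it alone. WAG2 fell by 1.27 with NAA and rose by 1.59 with CHX on the log2 scale.

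The genes most like each GH3 gene were named by Pearson's r of log2 values over the 16 arrays, among 7803 candidate genes, as a description. The arrays of a group share a treatment, so the 16 points are not independent. Closest to WES1 were AT4G17350 (r 0.985), LBD16 (r 0.965) and AT1G33790 (r 0.963). LBD16, whose probe set may read the fusion, the mutant locus or both, was at 474.1 ± 42.7 in mock and 5144.8 ± 102 with NAA (intensity, SD, n = 2). With NAA+CHX it was at 1142.1 ± 21, like WES1 far below its level with NAA. For DEX the means of the 2 genes were less alike. LBD16 averaged 3542.1 with NAA+DEX, 893.5 with CHX and 857.3 with DEX+CHX. WES1 averaged 11413.1 with NAA, 12597 with NAA+DEX, 1405 with CHX and 2558.4 with DEX+CHX. From NAA+CHX to NAA+DEX+CHX both means were higher, at 1432 for LBD16 and 3019.4 for WES1 with DEX.

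Closest to GH3.1 were AT5G04980 (r 0.989), AT2G39870 (r 0.975) and AT3G54000 (r 0.971). AT2G39870 averaged 227 in mock, 708.6 with NAA, 1705.8 with CHX and 1912 with NAA+DEX, the order in which those 4 groups also stand for GH3.1. Closest to GH3.3 were AT3G09280 (r 0.979), AT1G60010 (r 0.975) and AT4G38900 (r 0.954).

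For GH3.17 the nearest were AT1G62790 (r 0.976), AT5G43960 (r 0.974) and AT1G48830 (r 0.974), and for GH3.9 AT5G40600 (r 0.939), AT2G44200 (r 0.938) and AT2G25460 (r 0.933). Among the GH3 genes themselves r was 0.929 between GH3.1 and GH3.3, 0.834 between GH3.3 and WES1, and 0.65 between GH3.1 and WES1. It was -0.772 between GH3.9 and GH3.17.

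**Figure D4:**
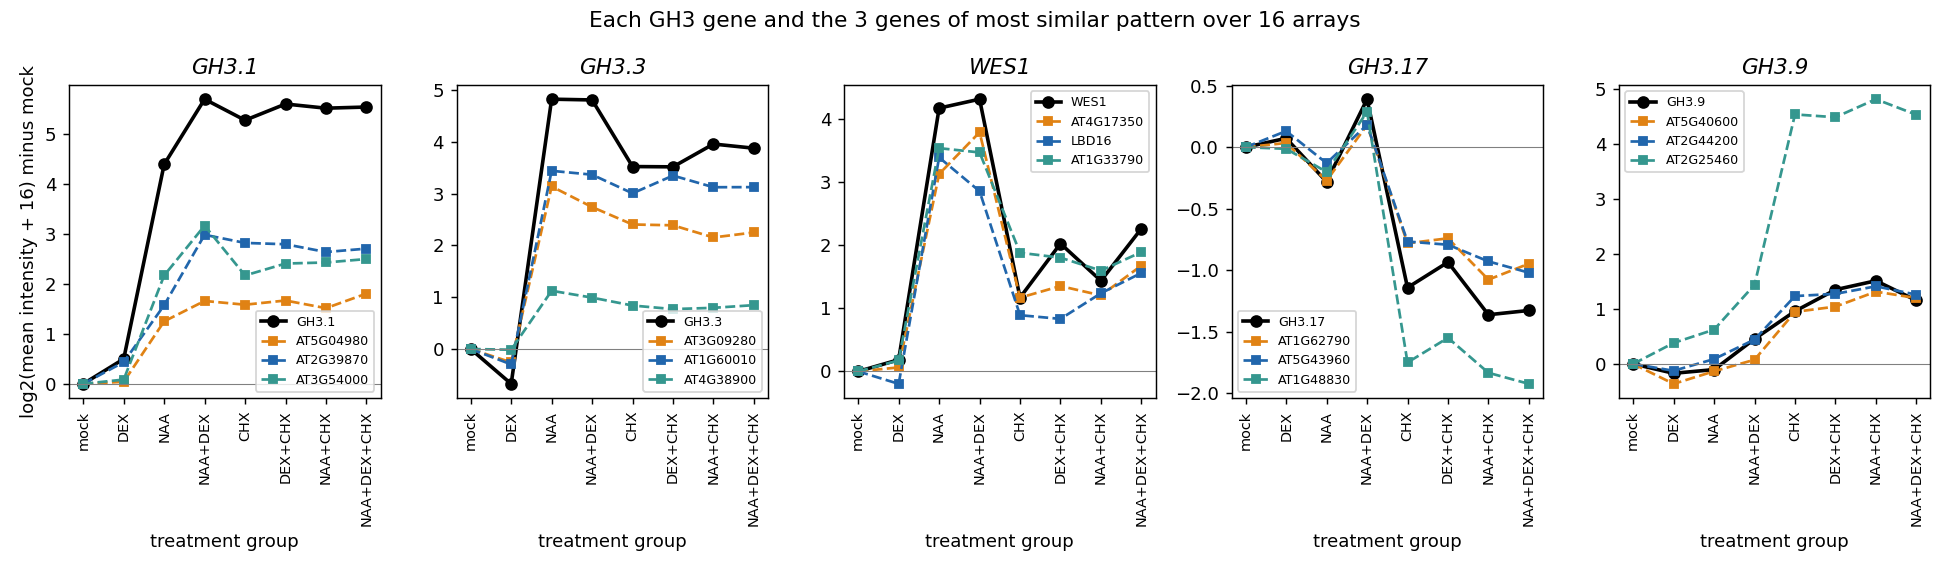
Level of each GH3 gene (solid) and of the 3 genes most like it (dashed) over the 8 treatment groups, as log2(mean intensity + 16) minus its mock value, 1 panel per GH3 gene; each point is the mean of 2 arrays. WES1 and LBD16 both peak in the groups with NAA and without CHX.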

How the data were processed

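Root RNA was labelled with biotin and hybridised to 16 single-channel arrays. The deposited table holds 1 linear intensity per probe set and array, made by the authors with Affymetrix Expression Console 1.3 per the submitters' processing notes. The summary method, background correction and scaling method are not given in the sources used here; a 2% trimmed mean of 500 was computed here on each deposited array. Of the 2 labelling kits in the labels, which one served each array is not told, and no term for labelling could be fitted.

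After 64 control probe sets were removed from 22810, log2(intensity + 16) was fitted for 22746 probe sets in limma 3.58.1 (R 4.3.3), with 1 mean per group, all 16 arrays and 8 residual degrees of freedom. Tests were two-sided, with Benjamini-Hochberg adjustment across the probe sets. The fit was tested on simulated data. Groups came from the array titles, and arrays of different treatments that share a number were not paired: their deviations correlated between -0.059 and 0.067 over 28 pairs of groups.

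The GH3 members and the gene lists (other GH3 genes, auxin inactivation, synthesis, perception, Aux/IAA repressors, transport, root and shoot markers) were chosen with earlier results of these data known. All 5 members were named whatever their values, list genes if called, up to 4 per list and comparison, and the 3 genes of highest Pearson's r with each member. Probe sets were named from the array annotation: 13513 had 1 gene, 503 several and 8730 none listed. Each GH3 gene had 1 probe set, and hybridisation to related GH3 transcripts was not tested. Alternatives were other offsets, 2 other scalings, an intensity filter, a replicate block, a fit on only the arrays compared and leaving out each array. No sequences are printed, and no coordinates, since the annotation names no build. The number of arrays limits the precision.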

Additional observations from a re-analysis of the deposited data

Results flagged for a closer look

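The NAA effect differed between the arrays without and with CHX in 3 GH3 genes, by a test of the difference itself (NAA by CHX interaction, limma, averaged over the DEX states). The interaction was -4.73 on the log2 scale in GH3.1, -4.77 in GH3.3 and -3.90 in WES1. On top of NAA, CHX gave a log2 difference of 1.13 in GH3.1, -0.87 in GH3.3 and -2.74 in WES1, so these 3 genes reached the same kind of interaction at different levels. With 2 arrays per group, no single array could be tested for standing apart.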

How the results depend on the processing

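Of 90 member values (5 GH3 genes in 18 comparisons), 32 were called. No call was lost with offsets of 1 or 64, median centring, quantile normalization or a mean intensity of at least 100, which removed GH3.9 (mean 40.98). Median centring moved the median of all probe sets in CHX vs mock from -0.04 to -0.20, and against it GH3.17 was at -1.31 and GH3.9 at 0.83, both called. With an offset of 64 the number of GH3 genes called was 2 for NAA+DEX vs NAA (GH3.17 added, limma adjusted p = 0.023), 1 for DEX by CHX (WES1, 0.013) and 1 for DEX by NAA without CHX (GH3.1, 0.034). With the intensity filter it was 2 for NAA+DEX vs NAA (GH3.17, 0.025) and 1 for DEX by CHX (WES1, 0.02). With the replicate block it was 2 for NAA+DEX vs NAA (GH3.17, 0.018), and 0 for DEX+CHX vs CHX (WES1, 0.08) and for NAA+DEX+CHX vs NAA+CHX (WES1, 0.053), but the numbers do not pair the arrays. Fitted on only the arrays compared, it was 0 for NAA+DEX vs NAA, DEX+CHX vs CHX (WES1, 0.54), NAA+DEX+CHX vs NAA+CHX (WES1, 0.41) and both mean DEX effects, with fewer residual degrees of freedom. Leaving out 1 array at a time gave 0 to 1 for DEX+CHX vs CHX and 0 to 1 for NAA+DEX+CHX vs NAA+CHX. GH3.9 in NAA+DEX+CHX vs NAA+DEX gained a call with an offset of 64 (0.041), on only the arrays compared (0.037) and in 8 fits without 1 array (lowest 0.038), those without a mock, DEX, DEX+CHX or NAA+CHX array. The GH3.9 log2 difference in DEX+CHX vs DEX was 2.37 with an offset of 1 and 0.77 with 64, and in NAA+CHX vs NAA 2.31 and 0.85. A sign change occurred only in uncalled values: GH3.1 in NAA+DEX+CHX vs NAA+CHX was -0.0074 after quantile normalization, and after median centring GH3.3 was 0.025 in NAA+DEX vs NAA and 0.0017 for the mean DEX effect with CHX. Leaving out 1 array, such values ran in NAA+DEX+CHX vs DEX+CHX from -0.19 to 0.066 (GH3.1) and -0.42 to 0.053 (GH3.9), and in NAA+DEX+CHX vs NAA+CHX from -0.11 to 0.15 (GH3.1), -0.11 to 0.17 (GH3.17) and -0.25 to 0.075 (GH3.3). For DEX by NAA with CHX they ran from -0.40 to 0.023 (GH3.17), -0.41 to 0.19 (GH3.3) and -0.11 to 0.055 (WES1), and without CHX from -0.13 to 0.046 (WES1). For DEX vs mock they ran from -0.059 to 0.20 (GH3.17) and -0.47 to 0.13 (GH3.9), for NAA vs mock from -0.38 to 0.22 (GH3.9), and for NAA+CHX vs CHX from -0.42 to 0.0038 (GH3.17). For DEX+CHX vs CHX they ran from -0.27 to 0.32, for NAA+DEX vs NAA from -0.047 to 0.017 and for the mean DEX effect with CHX from -0.18 to 0.12 (all GH3.3). For GH3.9 they ran from -0.26 to 0.039 for NAA by CHX and from -0.11 to 0.14 for the mean DEX effect with CHX. Beyond the shared or fewer arrays the cause of these shifts was not tested. The alternative of another probe set per gene was not run, since each GH3 gene has 1. Dim signal limits GH3.9 in all groups and GH3.1 in mock and DEX.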
